A study of Homo sapiens with 3 samples.

Results

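The genes described here make ribosomes. They are 42 ribosome biogenesis and RNA polymerase I genes, taken from a list of gene names, and every array probe whose transcript accession belonged to a listed gene was used. The list took 42 of the 22439 genes that could be named on the array, and 52 of its 58201 probes. Expression was measured in TK-10, an established human renal cell carcinoma line, on 3 single-colour Agilent arrays. The vehicle array held RNA of cells given 0.1% DMSO, the cordyceps array RNA of cells given cordyceps at 750 μg/ml, and the sunitinib array RNA of cells given sunitinib, an inhibitor of receptor tyrosine kinases, at 10 μM. All cells were treated for 48 h. The labels name cordyceps, whereas the paper names cordycepin, an adenosine analogue first isolated from that fungus, at another dose. The array is called by its label here, and what the cells received is uncertain to that extent. Each condition had 1 array, so no replicate check was possible, no test was run, and precision is limited by having so few arrays.

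Ribosome production starts in the nucleolus, where RNA polymerase I transcribes the ribosomal DNA into a long precursor RNA. Small nucleolar ribonucleoproteins (snoRNPs) modify this precursor, those of the C/D class by methylation and those of the H/ACA class by pseudouridylation, and assembly factors then fold it, cut it and load it with ribosomal proteins to give the small and the large subunit. Dividing cells spend much of their energy on this work, and many genes of the pathway are known targets of the MYC transcription factor, which binds the E-box sequence CACGTG together with its partner MAX.

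The start of transcription was searched for short motifs, which are a feature of the sequence and not of the array signals. The genes and the motifs were chosen with earlier results known, so the shares below are description only. RefSeq promoter windows (GRCh38.p14) of 300 bases, 250 before and 50 after the start, were matched for 35 of the 42 genes by symbol, with 45 windows between them. The E-box CACGTG, which reads the same on both strands, was present in the windows of 16 of the 35 genes (45.7%), namely BYSL, DDX21, FBL, GAR1, GNL3, LYAR, NAT10, NOL6, NOP10, NOP14, NOP2, PES1, RRP9, UTP20, UTP4 and WDR43. It was present in 10.9% of 15843 protein-coding genes with a window and in 29 of 108 other genes of the pathway (26.9%). By windows, 16 of 45 (35.6%) held it, beside 7.26% of all 35116 windows. Stretches of 30 bases around the E-box are shown for 9 genes, because their letters and place carry this comparison; they are written 5′ to 3′ on the strand of the gene, with the E-box in capitals.
GNL3 (chr3:52686026-52686055, plus strand): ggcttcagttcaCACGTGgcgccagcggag
WDR43 (chr2:28894658-28894687, plus strand): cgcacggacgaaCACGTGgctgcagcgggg
RRP9 (chr3:51941892-51941921, minus strand): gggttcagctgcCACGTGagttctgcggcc
BYSL (chr6:41921515-41921544, plus strand): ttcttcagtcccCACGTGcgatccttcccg
GAR1 (chr4:109815781-109815810, plus strand): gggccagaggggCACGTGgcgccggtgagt
LYAR (chr4:4290068-4290097, minus strand): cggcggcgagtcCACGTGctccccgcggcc
NOP10 (chr15:34343130-34343159, minus strand): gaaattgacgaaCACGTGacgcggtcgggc
FBL (chr19:39846356-39846385, minus strand): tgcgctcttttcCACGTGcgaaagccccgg
PES1 (chr22:30591880-30591909, minus strand): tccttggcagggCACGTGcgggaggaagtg

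The E-boxes of these genes lay close to the start. Of 17 E-boxes in their windows, 15 (88.2%) began within 50 bases on either side of the start, whereas 1042 of 2821 E-boxes in all windows (36.9%) did. The ETS motif CCGGAAGT was found in 9 of the 35 genes (25.7%), beside 6.97% of protein-coding genes and 4.14% of all windows. The SP motif GGGCGG was found in 25 genes (71.4%), beside 64.3% and 45.0%, and the CCAAT box, searched as GATTGG, in 7 genes (20%), beside 21.5% and 15.1%. The NRF1 motif, whose letters stand in capitals in the middle part of the DKC1 sequence below, was found in DDX10 and DKC1 (5.71%), beside 1.99% and 1.24%. Of the 45 windows of these genes, 22.2% held the ETS motif, 64.4% the SP motif, 17.8% the CCAAT box and 4.44% the NRF1 motif. Those are the values to set beside the shares of all windows. Both strands were searched, and 1 pair of different motifs overlapped. These matches describe letters and not binding.

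The 250 bases before the start are shown for 5 further genes without an E-box in the window. DKC1, NOP56, NOP16 and UTP15 were among the genes with the lowest sunitinib signals relative to vehicle, and UBTF was the lowest with cordyceps and the highest with sunitinib. Letters in capitals mark any of the 5 motifs on either strand.
DKC1 (chrX:154762614-154762863, plus strand): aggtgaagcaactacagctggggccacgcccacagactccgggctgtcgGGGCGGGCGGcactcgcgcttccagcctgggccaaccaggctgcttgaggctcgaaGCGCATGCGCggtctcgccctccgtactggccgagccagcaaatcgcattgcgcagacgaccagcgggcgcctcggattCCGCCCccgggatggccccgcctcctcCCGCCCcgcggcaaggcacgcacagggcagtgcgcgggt
NOP56 (chr20:2652382-2652631, plus strand): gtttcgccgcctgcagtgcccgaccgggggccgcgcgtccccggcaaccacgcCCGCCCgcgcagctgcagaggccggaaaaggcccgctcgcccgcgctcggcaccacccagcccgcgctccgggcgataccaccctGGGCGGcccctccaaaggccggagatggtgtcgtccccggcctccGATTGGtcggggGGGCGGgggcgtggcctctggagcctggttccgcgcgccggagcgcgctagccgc
NOP16 (chr5:176388599-176388848, minus strand): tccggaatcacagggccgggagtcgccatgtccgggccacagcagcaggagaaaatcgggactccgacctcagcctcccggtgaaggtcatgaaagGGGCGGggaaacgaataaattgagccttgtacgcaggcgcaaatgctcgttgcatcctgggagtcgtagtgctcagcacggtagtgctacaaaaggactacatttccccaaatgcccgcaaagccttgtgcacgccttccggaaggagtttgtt
UTP15 (chr5:73565493-73565742, plus strand): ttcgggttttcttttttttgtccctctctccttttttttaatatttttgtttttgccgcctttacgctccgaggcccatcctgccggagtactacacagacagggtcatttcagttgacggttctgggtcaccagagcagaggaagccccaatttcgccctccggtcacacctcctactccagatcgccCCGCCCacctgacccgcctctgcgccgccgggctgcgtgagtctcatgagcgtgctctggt
UBTF (chr17:44220883-44221132, minus strand): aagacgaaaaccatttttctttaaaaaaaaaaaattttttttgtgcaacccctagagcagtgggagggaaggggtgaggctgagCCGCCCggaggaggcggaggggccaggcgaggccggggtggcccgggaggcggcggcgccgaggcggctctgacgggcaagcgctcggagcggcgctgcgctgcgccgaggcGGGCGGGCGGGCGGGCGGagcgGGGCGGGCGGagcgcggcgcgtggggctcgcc

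All 42 genes were well above background on all 3 arrays by the flag of the scanner software, so each ratio rests on a measured signal on both sides. Their processed signals, in arbitrary intensity units, ran from 74.6 to 219515 on the vehicle array (median 865), from 56.6 to 200150 on the cordyceps array (median 1111) and from 34.1 to 178744 on the sunitinib array (median 278). The upper ends are those of the brighter TSR1 probe, with which the dimmer TSR1 probe disagreed, as described below. The arrays differed in overall brightness, with a 75th percentile over all probes of 165, 138 and 78.2 on the vehicle, cordyceps and sunitinib arrays. Signals were therefore divided by that percentile before a ratio was taken, and every log2 ratio below is on that scale. Probes well above background made up 45.5%, 37.8% and 38.3% of each array. The software's own error for a spot gave each log2 ratio of these genes a technical error of at least 0.20, and a log2 ratio inside the 95% limits of that error, 0.40 for most genes, was counted as within the technical limit. That error does not include the spread between cultures. In bulk RNA, a lower level per cell and a smaller share of cells with the transcript cannot be told apart. Of 9 measured genes that mark renal tubular epithelium, 8 were well above background on every array, among them PAX8, PAX2, LHX1 and KRT18, and CDH1 was not. Among markers of other cell types, CD3E, PECAM1, COL3A1 and ALB were not well above background on any array, and PTPRC, of blood cells, had signals of 18.4, 12.4 and 45.7. COL1A1 and CDH5 were well above background on every array, and COL1A1, a collagen of mesenchymal cells, had signals of 5308, 1069 and 385 on the vehicle, cordyceps and sunitinib arrays.

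**Figure D1:**
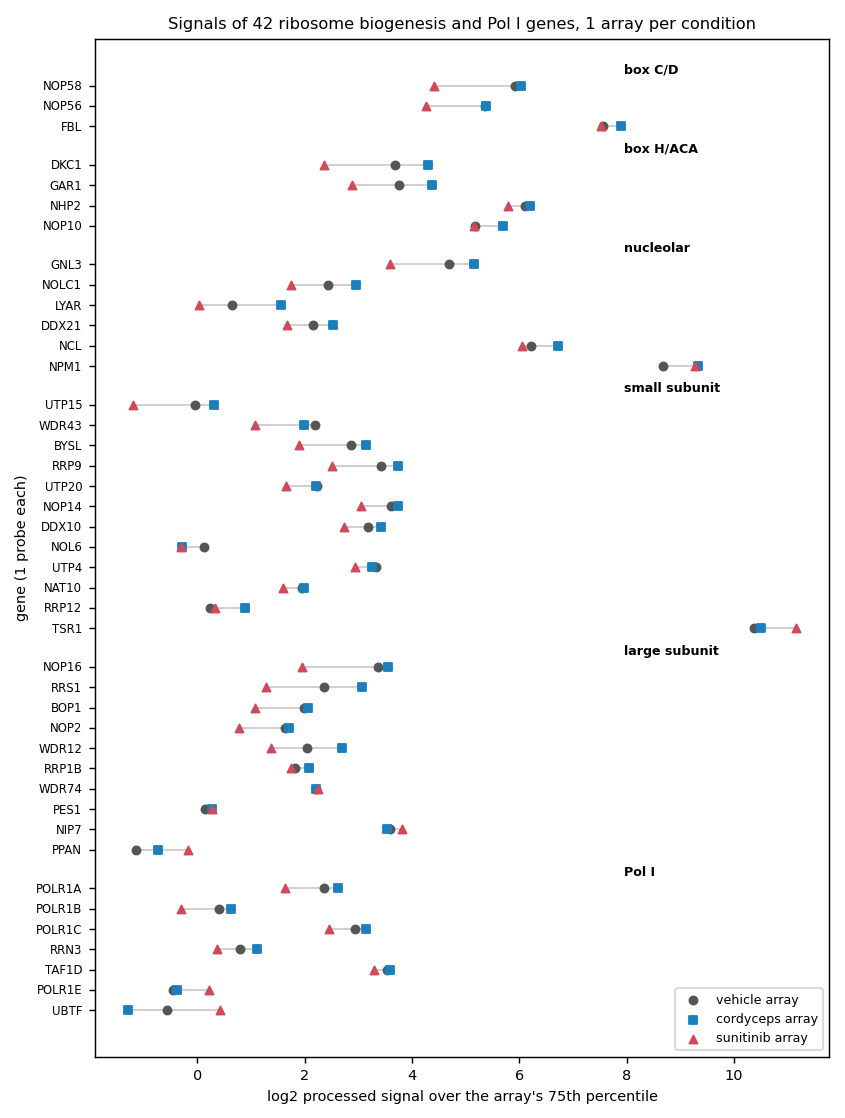
Signal of each of the 42 genes on the vehicle, cordyceps and sunitinib arrays, as log2 of the processed signal over the array's 75th percentile, with genes ordered by role and 1 point for each array. Most sunitinib points lie to the left of the vehicle points, and most cordyceps points lie at or to the right of them.

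Relative to vehicle, the sunitinib array was lower for most of these genes and the cordyceps array slightly higher. With sunitinib, 8 genes were more than 2-fold lower (DKC1, GNL3, NOP16, NOP56, NOP58, RRS1, UTP15 and WDR43) and 0 were more than 2-fold higher. Over the 14897 genes compared, 6.49% were more than 2-fold lower and 6.41% more than 2-fold higher, and among 4110 genes with a mean level between the quartiles of the 42 genes (those of the 42 in that range included), 5.64% were more than 2-fold lower. The median log2 ratio was −0.49 (quartiles −0.91 and −0.04), beside 0.00 for all genes and −0.05 for the genes of like brightness. At a 1.5-fold limit, 19 of the 42 genes were lower and 5 higher, where 15.6% and 15.4% of all genes and 15.5% (lower) of genes of like brightness lay. The 5 higher genes were NPM1, POLR1E, PPAN, TSR1 and UBTF. In all counts of this paragraph TSR1 is taken by its brighter probe, and its dimmer probe had the opposite sign, as described below. By the technical limit, 24 genes were lower, 5 higher and 13 within it, where 19% of all genes were lower and 19.7% higher. In all, 33 genes lay below 0 and 9 above, where 48.7% of all genes lay below and 45.2% above.

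With cordyceps, 0 of the 42 genes were more than 2-fold lower and 0 more than 2-fold higher, where 2.74% and 2.93% of 14774 genes lay beyond these limits. At 1.5-fold, 1 gene was lower (UBTF) and 7 were higher (LYAR, RRS1, WDR12, NPM1, RRP12, GAR1 and DKC1), beside 8.89% and 8.66% of all genes and 7.25% (higher) of genes of like brightness. By the technical limit, 1 gene was lower, 11 were higher and 30 lay within it, where 11.8% of all genes were lower and 13.2% higher. In all, 36 of the 42 genes lay above 0, where 46% of all genes lay above and 48% below. The median log2 ratio was 0.22 (quartiles 0.07 and 0.45), and it was 0.00 for all genes and 0.01 for genes of like brightness. In the authors' values before any scaling between arrays, the median of the 42 genes with cordyceps turned to −0.03, when that of all genes was −0.24, and with sunitinib it was −1.56 when that of all genes was −1.05.

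**Figure D2:**
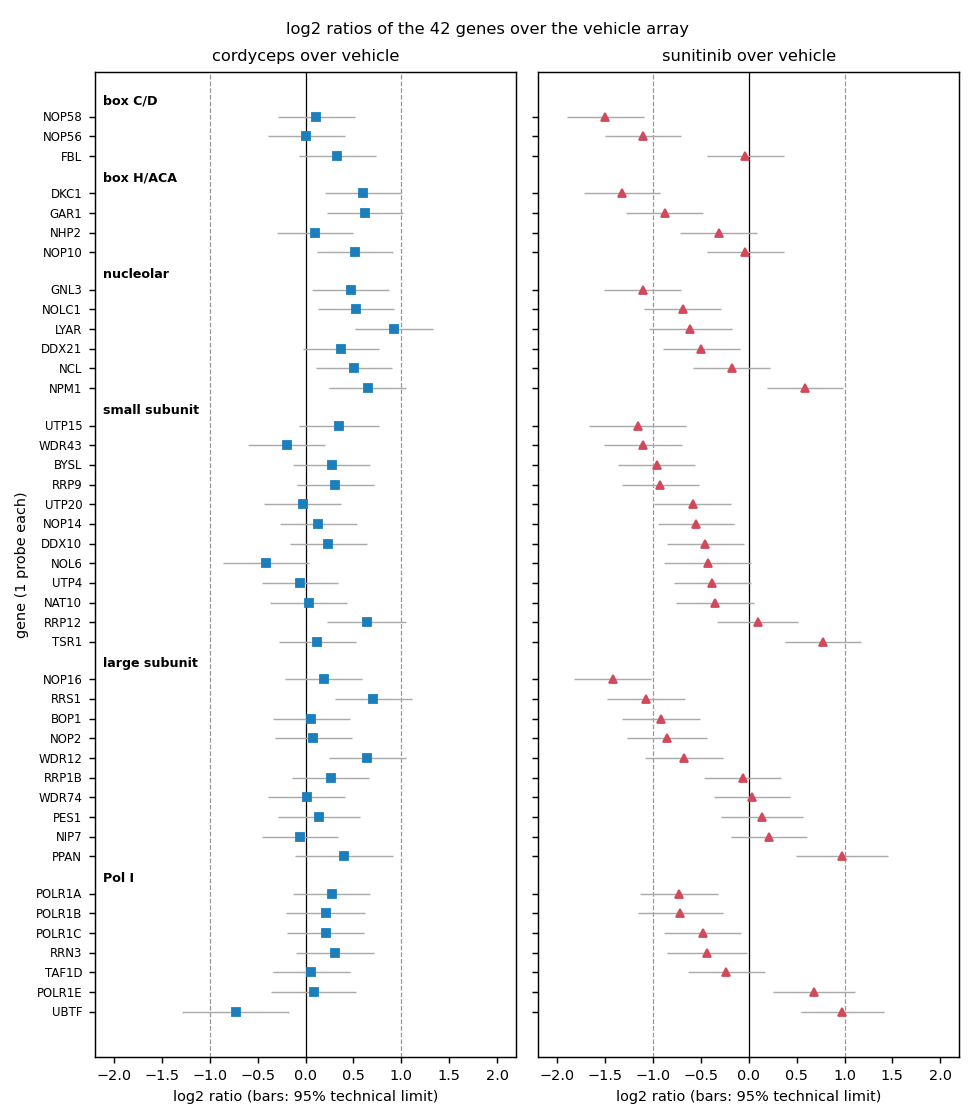
Log2 ratio of each gene for cordyceps over vehicle and sunitinib over vehicle, with bars for the 95% limits of the technical error and vertical lines at the 2-fold limits. The sunitinib ratios run from −1.50 (NOP58) to 0.98 (UBTF), and no cordyceps ratio reaches a 2-fold limit.

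**Figure D3:**
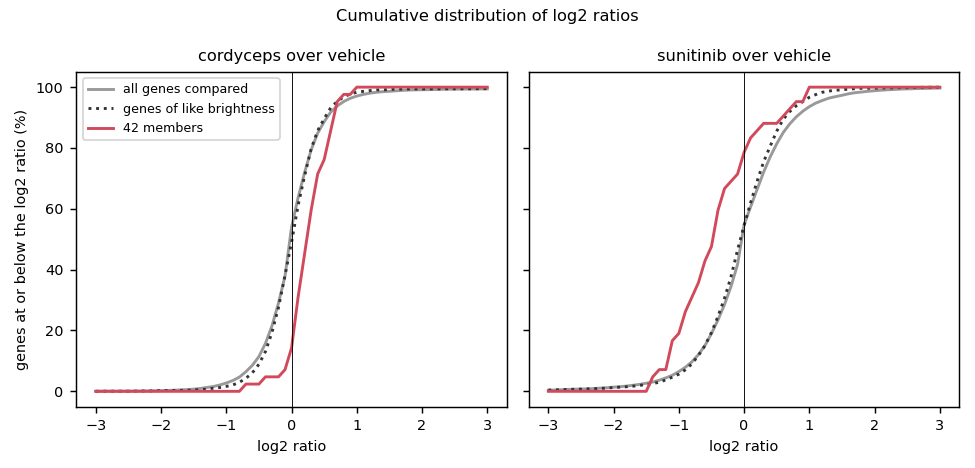
Cumulative share of genes against the log2 ratio for the 42 genes, all genes compared and genes of like brightness, in each comparison. Over most of its range, the curve of the 42 genes lies to the left of both others with sunitinib, at a median of −0.49, and slightly to the right with cordyceps, at a median of 0.22.

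Of the 3 C/D snoRNP genes listed, 2 were low on the sunitinib array, and the gene of the enzyme was not. NOP58, a core protein that holds the guide RNA, had signals of 9926, 8991 and 1671 on the vehicle, cordyceps and sunitinib arrays. NOP56, its partner in the same particle, had 6802, 5725 and 1503. The sunitinib array was the lowest for both, and the log2 ratios over vehicle were −1.50 for NOP58 (2.82-fold lower) and −1.10 for NOP56 (2.15-fold lower), against 0.11 and 0.01 with cordyceps. A dimmer NOP56 probe had signals of 987, 873 and 257 and gave a log2 ratio of −0.87 with sunitinib. FBL, or fibrillarin, the methyltransferase of the particle, had 31181, 32845 and 14457, which came to log2 ratios of −0.04 with sunitinib and 0.33 with cordyceps, both within the technical limit. The median log2 ratio of the 3 genes was −1.10 with sunitinib and 0.11 with cordyceps, although the latter was −0.15 after quantile normalization and −0.14 unscaled.

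In the H/ACA particle, 2 of 4 genes were low with sunitinib beyond the technical limit. DKC1, or dyskerin, the pseudouridine synthase that also belongs to telomerase, had signals of 2128, 2701 and 404, and GAR1, a structural partner, had 2220, 2860 and 574. Both were highest on the cordyceps array and lowest on the sunitinib array. The log2 ratios over vehicle were 0.60 with cordyceps and −1.32 with sunitinib for DKC1, and 0.62 and −0.88 for GAR1. NHP2, which binds the RNA beside dyskerin, had 11358, 10197 and 4339, and NOP10, a small protein of the same particle, had 5988, 7169 and 2775. With sunitinib their log2 ratios of −0.31 and −0.04 lay within the technical limit, and with cordyceps NOP10 stood at 0.52 and NHP2 at 0.10. The median of the 4 genes was −0.60 with sunitinib and 0.56 with cordyceps.

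Among nucleolar proteins of other kinds, all 6 cordyceps ratios lay above 0, with a median of 0.52. LYAR, a nucleolar zinc finger protein linked to cell growth, had signals of 258, 409 and 80.4, and its log2 ratio with cordyceps, 0.92 ± 0.21 (technical error), was the highest of the 42 genes. With sunitinib it was −0.61. GNL3, or nucleostemin, a GTP-binding protein of stem and cancer cells, had 4258, 4938 and 939, with log2 ratios of 0.47 and −1.11. For both genes the order of the arrays was cordyceps, vehicle, sunitinib. NPM1, or nucleophosmin, a histone and ribosome chaperone, had 67835, 89020 and 48461 and differed from the others, at 0.65 with cordyceps and 0.59 with sunitinib. Its other probes gave 0.56 and 0.44 with cordyceps and 0.69 and 0.63 with sunitinib. NPM1 has processed pseudogenes whose transcripts a probe may share, which was not tested, and its sunitinib ratio was −0.49 in the unscaled values. DDX21, an RNA helicase that joins transcription to processing, had 736, 797 and 248, with log2 ratios of 0.37 and −0.50. NCL, or nucleolin, stood at 0.51 and −0.18, and NOLC1, a chaperone of snoRNPs, at 0.53 and −0.69.

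Of the 12 small subunit genes, 10 lay below 0 and 2 above with sunitinib, by amounts that differed widely. By the technical limit 7 were lower. UTP15, which belongs to the part of the processome that helps the polymerase, had signals of 160, 171 and 34.1, and WDR43, of the same part, had 750, 548 and 165. The sunitinib array was the lowest for both. Their log2 ratios with sunitinib were −1.16 ± 0.26 and −1.11, and with cordyceps 0.35 and −0.20. NOL6 had 180, 113 and 63.3, with log2 ratios of −0.41 and −0.43 that lay within its technical limits of 0.44 and 0.45. A second NOL6 probe with signals of 132, 117 and 23.7 gave 0.08 with cordyceps and −1.40 with sunitinib. The 2 NOL6 probes thus differed in size with sunitinib, and in sign with cordyceps within the technical limit. RRP12, an export factor, had 195, 254 and 98.9 and was at 0.64 with cordyceps and 0.09 with sunitinib, although scaling to the median of all probes turned the latter to −0.24.

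TSR1, a factor of the late steps, was the brightest of the 42 genes by the brighter of its 2 probes only, and the 2 disagreed. Its brighter probe had signals of 219515, 200150 and 178744, and only 18 probes of the vehicle array were brighter. That probe gave log2 ratios of 0.12 with cordyceps and 0.78 with sunitinib. The dimmer TSR1 probe had signals of 712, 565 and 151 and gave −0.08 with cordyceps and −1.16 ± 0.21 with sunitinib. The signs with sunitinib were therefore opposite, and both ratios lay beyond their technical limits. With the dimmer probe in its place, 9 of the 42 genes were more than 2-fold lower with sunitinib, a count that still takes NOL6 by its brighter probe, although its dimmer one also lay beyond 2-fold. Which probe reports the TSR1 transcript was not tested.

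The other members of the small subunit group all lay below 0 with sunitinib and within the technical limit with cordyceps. RRP9, a snoRNP protein of the processome, and BYSL, or bystin, a late factor, were at −0.92 and −0.96, both close to the 2-fold limit. NOP14, DDX10, UTP20, UTP4 and NAT10 ran from −0.59 (UTP20) to −0.35 (NAT10), and NAT10, an RNA cytidine acetyltransferase, and UTP4 lay within the technical limit. With cordyceps these 7 genes ran from −0.06 (UTP4) to 0.31 (RRP9). The median over all 12 genes of the group was −0.50 with sunitinib and 0.13 with cordyceps, the latter −0.13 unscaled.

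The large subunit group held both low genes and genes near vehicle with sunitinib. NOP16, a nucleolar protein of early large subunit particles, had signals of 1707, 1628 and 303, and RRS1, which helps to bring in the RNA of the central protuberance, had 844, 1154 and 190. Their log2 ratios with sunitinib were −1.42 and −1.07, and with cordyceps 0.19 and 0.71. On the other side, NIP7 had 1992, 1602 and 1095, with ratios of −0.06 and 0.21 within the technical limit. PPAN had 74.6, 82.6 and 69.6, the lowest vehicle signal of the 42 genes, and gave 0.40 with cordyceps, within its technical limit of 0.51, and 0.97 ± 0.24 with sunitinib. The PPAN signal was nearly level before scaling, so its sunitinib ratio was −0.10 in the unscaled values, and a read-through transcript with its neighbour may share the probe, which was not tested.

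PES1, BOP1 and WDR12 form a complex that is needed for large subunit maturation, and their ratios were alike only in part. PES1 stood apart with sunitinib and WDR12 with cordyceps. With sunitinib, BOP1 was at −0.92, WDR12 at −0.67 and PES1 at 0.13. With cordyceps, WDR12 was at 0.65 and the others at 0.06 and 0.14. NOP2, an RNA methyltransferase, was at −0.85 with sunitinib, while RRP1B and WDR74 were at −0.06 and 0.03, and with cordyceps these 3 genes ran from 0.01 to 0.26. The median of the 10 genes was −0.37 with sunitinib and 0.16 with cordyceps, the latter −0.09 unscaled.

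RNA polymerase I and its factors lay mostly below vehicle with sunitinib, with 4 of the 7 genes lower and 2 higher beyond the technical limit. None of the 7 was beyond 2-fold in either comparison with vehicle, which at the shares over all genes given above is no result about so few genes, and with scaling to the median of all probes 2 were more than 2-fold lower with sunitinib. POLR1A, the largest subunit, had signals of 841, 851 and 242, with log2 ratios of 0.27 with cordyceps and −0.73 with sunitinib. POLR1B, the other large catalytic subunit, was close to it at 0.21 and −0.72, and POLR1C, which RNA polymerase III shares, was at 0.21 and −0.48. A second POLR1C probe, with signals of 217, 153 and 71.1, gave the opposite sign with cordyceps, −0.25, and −0.54 with sunitinib, and both cordyceps ratios lay within the technical limit. POLR1E, a subunit of the polymerase that takes part in initiation and elongation, had 120, 106 and 91.1 and stood at 0.08 and 0.68. The initiation factor RRN3, which docks the polymerase on the promoter, had 287, 297 and 101 by its brightest probe, or 0.30 and −0.44. Its other probes gave 0.02 and −0.70 with cordyceps and −0.42 and −0.74 with sunitinib, the dimmest of them not well above background on the sunitinib array, and RRN3 has pseudogenes that a probe may share. TAF1D, of the promoter selectivity factor, was at 0.06 and −0.24.

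UBTF, the upstream binding factor that keeps ribosomal DNA open for the polymerase, ran opposite to most of the other genes. Its signals were 112, 56.6 and 105. The cordyceps array was the lowest, and after scaling the sunitinib array was the highest. The log2 ratio was −0.73 ± 0.29 with cordyceps and 0.98 ± 0.22 with sunitinib, and both lay beyond the technical limit. In the unscaled values its sunitinib ratio was −0.10, when the median of all genes was −1.05. The median log2 ratio of the 7 polymerase I genes was −0.44 with sunitinib and 0.21 with cordyceps, the latter −0.05 unscaled.

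The treated arrays share the vehicle array, so their ratios are not independent, and they were compared with each other directly. On the sunitinib array, 13 of the 42 genes were more than 2-fold lower than on the cordyceps array and 1 was higher (UBTF), where 9.43% of 13876 genes were lower and 7.56% higher. The median log2 ratio was −0.69, beside 0.01 for all genes and −0.03 for genes of like brightness, and 36 of the 42 genes lay below 0. DKC1 was the lowest at −1.92 (3.79-fold), followed by RRS1 at −1.78, and UBTF the highest at 1.70 (3.26-fold). Besides genes more than 2-fold lower than vehicle with sunitinib, the 13 included BYSL, GAR1, LYAR, NOLC1, RRP9 and WDR12, which were lower than vehicle by less than 2-fold. The 13 did not include WDR43, at −0.91.

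The ratios of genes with and without an E-box in the window overlapped. With sunitinib, the median log2 ratio was −0.57 for the 16 genes with an E-box and −0.44 for the 19 without, and 2 and 4 of them were more than 2-fold lower. With cordyceps both medians were 0.21. GNL3 and WDR43, whose sequences are given above, were the 2 lower genes with an E-box, while FBL and NOP10, which also held one, were at −0.04 each. The 4 lower genes without an E-box were DKC1, NOP56, NOP16 and UTP15. NOP58 and RRS1, which were also more than 2-fold lower, had no window and were not searched.

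Other genes of the pathway, from a list of 126 names that did not include the 42, had smaller medians in the same comparisons. Of 122 compared, 7 were more than 2-fold lower with sunitinib (GNL2, GTPBP4, MPHOSPH6, MRTO4, PAK1IP1, URB1 and URB2) and 2 were higher (NAF1 and NOB1). Over all genes, 6.49% were lower and 6.41% higher, so the count of lower genes was near the share over all genes. The lowest of the 122 genes was URB2, a large subunit factor, at −1.41, and the highest NAF1, an H/ACA assembly factor, at 1.19. Their median log2 ratio was −0.27, with 86 below 0 and 35 above. With cordyceps, 1 was lower (UTP25, at −1.07) and 1 higher (NAF1, at 1.21), beside 2.74% and 2.93% of all genes. Their cordyceps median was 0.18, with 94 above 0. Against the cordyceps array, 28 of 121 were more than 2-fold lower on the sunitinib array and 1 was higher, beside 9.43% and 7.56% of all genes. By role, the sunitinib medians were −0.58 for 13 nuclear exosome genes, which trim the precursor, −0.35 for 40 small subunit genes, −0.32 for 47 large subunit genes, −0.20 for 10 further polymerase I genes and −0.09 for 12 snoRNP assembly genes. The exosome median was −0.31 with the mean of probes or with the brightest probe chosen for each comparison, so it was not below that of the small subunit genes in those settings.

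The proteins that these factors assemble stood on the other side of vehicle with sunitinib at this scaling. Of 75 cytosolic ribosomal protein genes compared, 15 were more than 2-fold higher, 0 were lower and all 75 lay above 0, from 0.51 (RPS26) to 1.25 (RPL41), with a median log2 ratio of 0.82. These genes are among the brightest on the array, and 29 other genes within the quartiles of their brightness had a median of 0.39. Both medians depended on the scaling, at 0.49 and 0.06 when scaled to the median of all probes, 0.43 and −0.01 after normexp background correction, 0.22 and −0.18 after quantile normalization, and −0.25 and −0.68 unscaled, and 0 ribosomal protein genes were beyond 2-fold in these settings. With cordyceps the ribosomal protein median was 0.20, beside −0.06 for the equally bright genes, and it was −0.06 unscaled. The core subunits of RNA polymerase II, which transcribes messenger RNA, had a median of 0.05 with sunitinib and 0.06 with cordyceps over 12 genes. None lay beyond 2-fold, which at the shares over all genes given above is no result about so few genes. Scaling to the median of all probes moved the sunitinib median to −0.28. POLR2E, POLR2F, POLR2H, POLR2K and POLR2L of this list are also subunits of RNA polymerases I and III. The list therefore does not set polymerase II apart from them. RNA polymerase III, which makes transfer RNA, had medians of −0.44 and 0.20 over 10 genes, with POLR3B at −1.37 with sunitinib and POLR3G at 1.23 with cordyceps.

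**Figure D4:**
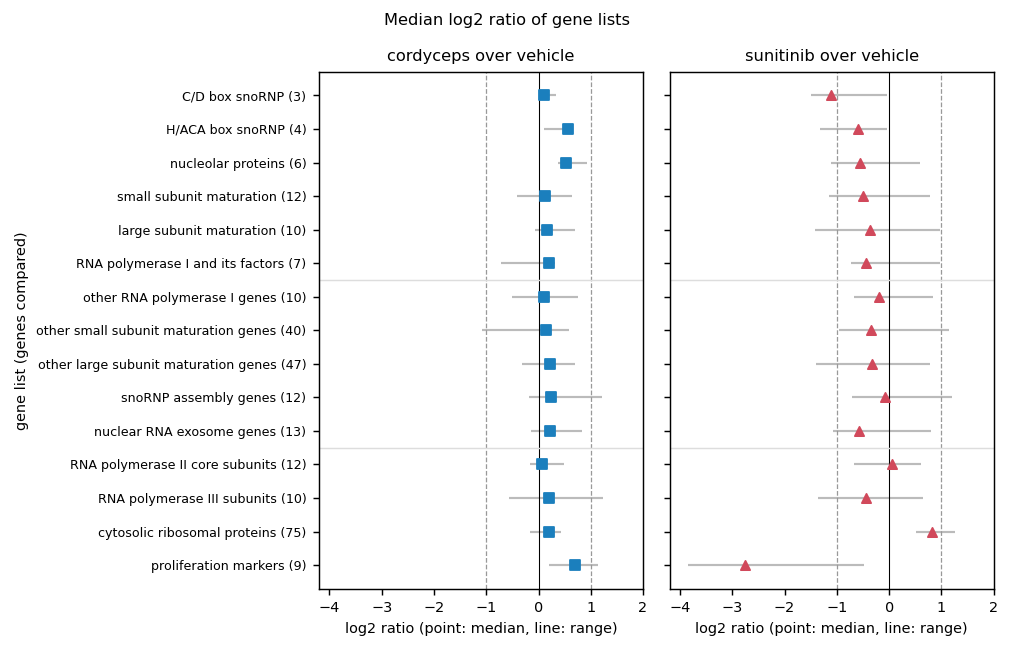
Median log2 ratio over vehicle of each role group, the other pathway lists and the comparison lists, for cordyceps and sunitinib, with the number of genes compared in brackets, points for the median, grey lines for the range and dashed lines at 2-fold. The C/D snoRNP genes have the lowest sunitinib median among the role groups, at −1.10, and the cytosolic ribosomal proteins have a median of 0.82.

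Markers of dividing cells lay on the same side of vehicle as the median of the 42 genes on each treated array. Of 9 measured proliferation markers, 8 were more than 2-fold lower with sunitinib (AURKA, BIRC5, BUB1, CCNA2, CCNB1, CDK1, MKI67 and TOP2A), with a median log2 ratio of −2.76 in which 5 values are bounds, because only 4 of the 9 were well above background on the sunitinib array. After normexp background correction the median was −1.49, with 6 of the 9 more than 2-fold lower. With cordyceps their median was 0.71, and 2 (BUB1 and CDK1) were more than 2-fold higher. Their summed signal over the 75th percentile was 48.8 on the vehicle, 73.8 on the cordyceps and 14.99 on the sunitinib array. The summed signal of the renal markers was 2332, 2011 and 2965, with KRT19 and VIM the brightest of them on every array. With sunitinib, 3 of 8 renal markers compared lay below 0 and 5 above. PAX8 was at −0.46, LHX1 at −0.93 and PAX2 at 0.77. With cordyceps, 6 of the 8 lay below 0 and 2 above, and PAX8, LHX1 and PAX2 were at −0.87, −0.77 and −0.62. The part of these markers in the ratios of the 42 genes was not tested.

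**Figure D5:**
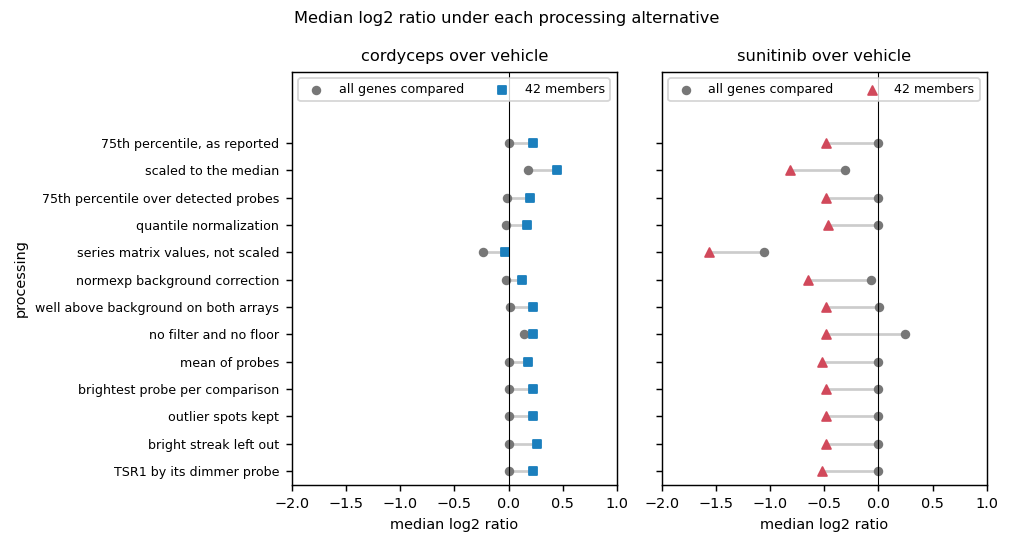
Median log2 ratio over vehicle of the 42 genes (coloured points) and of all genes compared (grey points) under each processing setting, joined by a line. The difference between the points stays between −0.73 and −0.47 with sunitinib and between 0.08 and 0.27 with cordyceps, while both points shift together in the unscaled values.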

How the data were processed

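TK-10 RNA was measured on 3 arrays, 1 each of vehicle, cordyceps and sunitinib, grouped by their labels. The authors deposited the output of Agilent Feature Extraction 11.5.1.1, which gives a linear intensity for each spot, corrected for background by the software, and a table of processed intensity that matched the probes' mean processed signal within 0.01% for over 99% of values and was not scaled between arrays. The header names build hg19. The paper describes another array type with a ratio of 2 colours and a test that needs replicates, so only its 2-fold limit was taken.

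Control spots and outlier spots were left out, replicate spots were averaged for each probe, and signals were divided by the 75th percentile of their array and put on a log2 scale. Probes were named by accession through a RefSeq table (GRCh38.p14), and 31104 of 58201 (53.4%) matched. The brightest probe of a gene over the 3 arrays was used. A gene was compared if its probe passed the background flag on either array, and a dimmer side under the lowest detected signal was raised to it and treated as a bound. A bound that ran against the side that passed the flag was set to 0. Some of all genes therefore lay at exactly 0, and in both comparisons with vehicle the median of all genes fell on that value. None of the 42 genes was a bound. No saturated spot was present. A bright streak of 567 spots on the cordyceps array held 0 probes of the 42 genes. On probes with 10 spots, the median SD of log2 signal was 0.0493 to 0.0583. The 42 genes, the lists and the motifs were chosen with earlier results of these data known. Signals and ratios are given for genes beyond 2-fold, the highest and lowest of each role group, and genes whose probes disagreed in sign with both beyond the technical limit. Probes of POLR1C, NOP14, NOL6, RRN3 and TSR1 also differed in sign with cordyceps, but within that limit. The second POLR1C probe was added after its values were seen. In all, 12 alternatives were planned and 1 was added, covering scaling, background correction, dim probes, several probes, outlier spots, the streak and the fold limit. Normexp was run in limma 3.58.1 under R 4.3.3. All else, quantile normalization included, was run in Python 3.11.15 with scipy 1.17.1, pandas 2.3.3 and numpy 2.4.6. The code was tested on simulated arrays.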

Additional observations from a re-analysis of the deposited data

How the results depend on the processing

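The median log2 ratio of the 42 genes less that of all genes was −0.49 and ran from −0.73, with no filter on dim probes, to −0.47 over the alternatives run, and with cordyceps it was 0.22 and ran from 0.08 to 0.27. Scaling to the median of all probes moved the median of all genes by 0.18 with cordyceps and −0.31 with sunitinib, and gave 1 gene more than 2-fold higher with cordyceps (LYAR) and 17 lower with sunitinib. In the unscaled authors' table, 34 genes were lower with sunitinib, when 53.6% of all genes were. At a 1.5-fold limit, 1 gene was lower and 7 higher with cordyceps, and 19 were lower and 5 higher with sunitinib. The split of all genes beyond 2-fold also moved. With sunitinib 967 were lower and 955 higher, against 1927 and 517 with the median, 7989 and 156 unscaled, 837 and 319 with normexp background correction, and 1498 and 6232 with no filter. With cordyceps 405 were lower and 433 higher, against 222 and 734 with the median, 829 and 265 unscaled, 186 and 188 with normexp and 965 and 1615 with no filter. Of the 8 genes lower with sunitinib, UTP15 was at −0.65 with normexp and NOP56 at −0.99 with the mean of its probes, and the other 6 passed 2-fold in all settings run. The cause was not tested. Among results on the whole list 68 alternative values differed little from those given and 8 moved, and among single genes 438 and 114. Use of the dimmer TSR1 probe was chosen after seeing the data. No paired analysis was possible because each condition had 1 array. Low signals such as those of PPAN and UBTF have the widest technical errors, and with 1 array for each condition no value here separates treatment from culture.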
